A study of Homo sapiens with 4 samples.

Results

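Intermediate filament genes were examined in 2 lines of fusion-negative rhabdomyosarcoma, RD and JR1, with and without depletion of the ubiquitin ligase subunit SKP2. The 10 genes were taken by name, not by their values, from the 39323 genes listed for each library. They encode the neural filament proteins NEFL, NEFM, NEFH, INA and PRPH, the progenitor and mesenchymal proteins NES and VIM, the muscle protein DES and the epithelial keratins KRT8 and KRT18. RD and JR1 are established myogenic tumor lines, and all 4 cultures were infected with a lentiviral hairpin vector and selected with puromycin. In each line the control carried a non-targeting hairpin (shSCR) and the other culture a single SKP2 hairpin (shSKP2.2, written shSKP2 here). Each line and condition gave 1 library from poly-A RNA, so no value within a line has a replicate, and each difference within a line compares 2 libraries and has no p-value. Untransduced cells were not analysed here.

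Intermediate filaments are rope-like polymers of coiled-coil proteins that give cells mechanical strength. Vimentin is the filament protein of mesenchymal cells, and nestin, typical of progenitor cells, is known to need a partner such as vimentin to polymerise. Desmin takes over in muscle, where it ties myofibrils together at the Z-discs. Keratins assemble only as pairs of a type I and a type II chain, KRT18 with KRT8 in simple epithelia, and neurofilaments are built from light, medium and heavy chains together with alpha-internexin (INA) or peripherin (PRPH).

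Levels are in TPM, a share of all transcripts corrected for transcript length and scaled to the same total in every library, so that genes can be compared with each other within a library. TPM keep no read numbers, and the depth of the libraries is unknown. The change of a gene is log2 of the ratio of TPM + 1, shSKP2 over shSCR, and the 12985 genes whose mean over the 4 libraries reached 1 TPM were tested. A gene was called higher or lower from 1 on this scale, a doubling of TPM + 1. Short structural RNAs took 50.1% to 62.3% of the TPM in RD and 57.1% to 64.9% in JR1, with the larger share in shSKP2, and the median over all tested genes lay at -0.27 (RD) and -0.21 (JR1). The members are therefore also described after these RNAs were taken out and the TPM rescaled. The median over the 14733 genes that then reached 1 TPM was 0.10 (RD) and 0.03 (JR1). Among the 12985 genes it was 0.08 and 0.03. The targeted SKP2 transcript had 92.8 TPM in RD shSCR and 7.40 TPM in RD shSKP2, and 46.5 and 2.72 TPM in JR1. Of the defining markers of this tumor, MYOD1 (87.0 to 131 TPM) and MYOG (31.6 to 107 TPM) were present in all libraries, and MYF5 was listed at 0 in all of them.

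VIM and NES had the highest levels of the 10 genes in every library. By mean TPM the order was VIM, NES, KRT18, DES, NEFL, NEFM, INA, KRT8, PRPH and NEFH. VIM had a mean of 716.8 TPM and NES of 279.5 TPM, and fewer than 2% of the tested genes had a higher level than either of them in any library. KRT18 followed at a mean of 131.4 TPM and DES at 42.5 TPM. DES, NEFL and NEFM have mean levels of the same order, but DES was at a like level in both lines whereas NEFL and NEFM were not. PRPH, with 0.400 to 0.880 TPM, and NEFH, with 0.060 to 0.230 TPM, stayed under the minimum and were not tested, which left 8 genes.

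**Figure D1:**
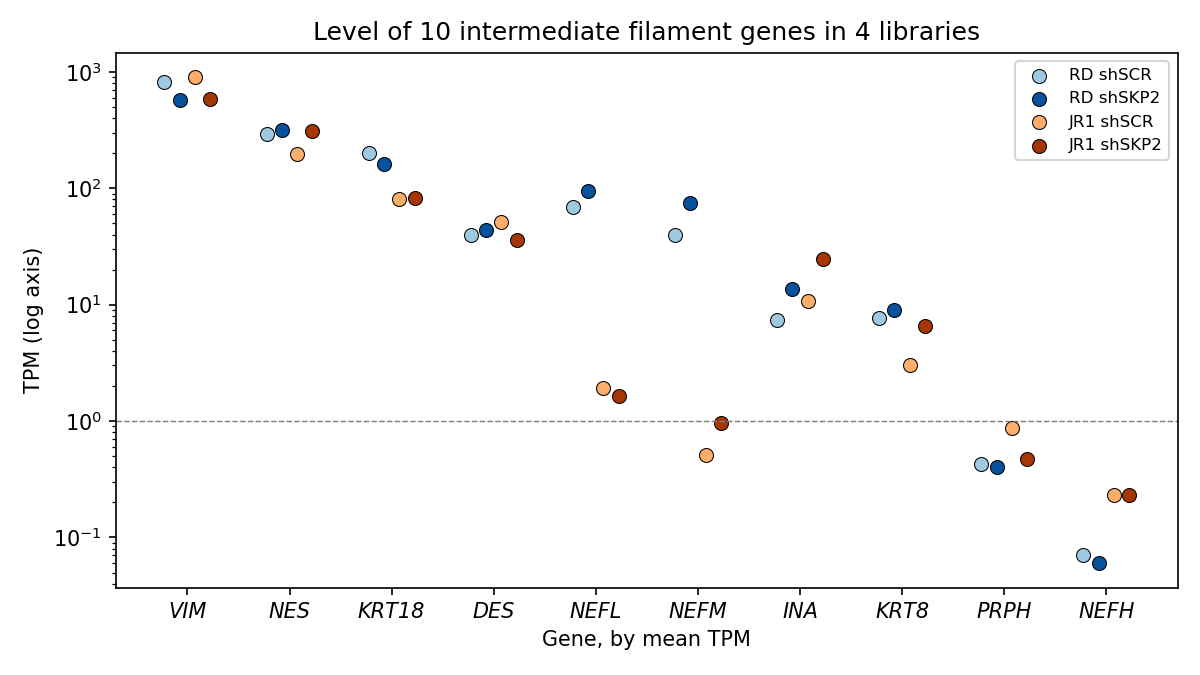
TPM (vertical, log axis) of the 10 intermediate filament genes (horizontal, ordered by mean TPM), with 1 point per library and a dashed line at 1 TPM. VIM lies above 572 TPM in all 4 libraries, while NEFL and NEFM are the genes with the widest gap between RD (39.5 to 94.9 TPM) and JR1 (0.510 to 1.91 TPM).

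The median log2 change of the tested filament genes with shSKP2 was 0.18 (RD) and 0.20 (JR1). In RD 6 of the 8 genes were higher and 2 lower, beside 3200 higher and 9738 lower over all tested genes. In JR1 5 were higher and 3 lower, beside 4011 and 8943. Without the short structural RNAs 7 were higher and 1 lower in RD, beside 7514 and 5345 over all tested genes. In JR1 6 were then higher and 2 lower, beside 6749 and 6112. None of the 8 was called higher in RD, against 1.08% of all tested genes, and 1 (INA) was called higher in JR1, against 1.78%. None was called lower in either line, against 7.37% of all tested genes in RD and 9.05% in JR1. After the short structural RNAs were removed the median of the 8 genes was 0.58 in RD and 0.54 in JR1, and 2 genes were called higher in each line, NEFM and INA in RD and INA and KRT8 in JR1. PRPH also passes the minimum after rescaling, and with it the median over 9 genes was 0.54 and 0.30. Over the same 12985 genes the calls were 140 higher and 957 lower in RD as deposited and 410 and 450 without these RNAs, and in JR1 231 and 1175 as deposited and 553 and 876 without them.

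The lines can also be taken as 2 pairs, which allows a test of the mean change over both. limma was fitted to log2 of TPM + 1 over all tested genes with the line as a block, which leaves 1 residual degree of freedom, so that the error reflects how unlike the changes of the 2 lines were and borrows most of its strength from other genes. INA rose by 0.96 ± 0.14 (SE) on the log2 scale with an adjusted p of 0.00558, and NEFM by 0.63 ± 0.17 with an adjusted p of 0.0334. VIM was lower (-0.55 ± 0.15, adjusted p = 0.0346). These 3 of the 8 genes passed an adjusted p of 0.05 in limma, as did 3.84% of all tested genes that were higher and 26.6% that were lower. Without the short structural RNAs INA (1.33, adjusted p = 0.00203), NEFM (1.04, 0.0104), NES (0.72, 0.0146) and KRT8 (0.95, 0.0191) passed in limma, and VIM did not (-0.21, 0.287). On that scale 11% of the 14733 genes tested passed as higher and 10.5% as lower. NEFL, DES and KRT18 passed on neither scale.

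**Figure D2:**
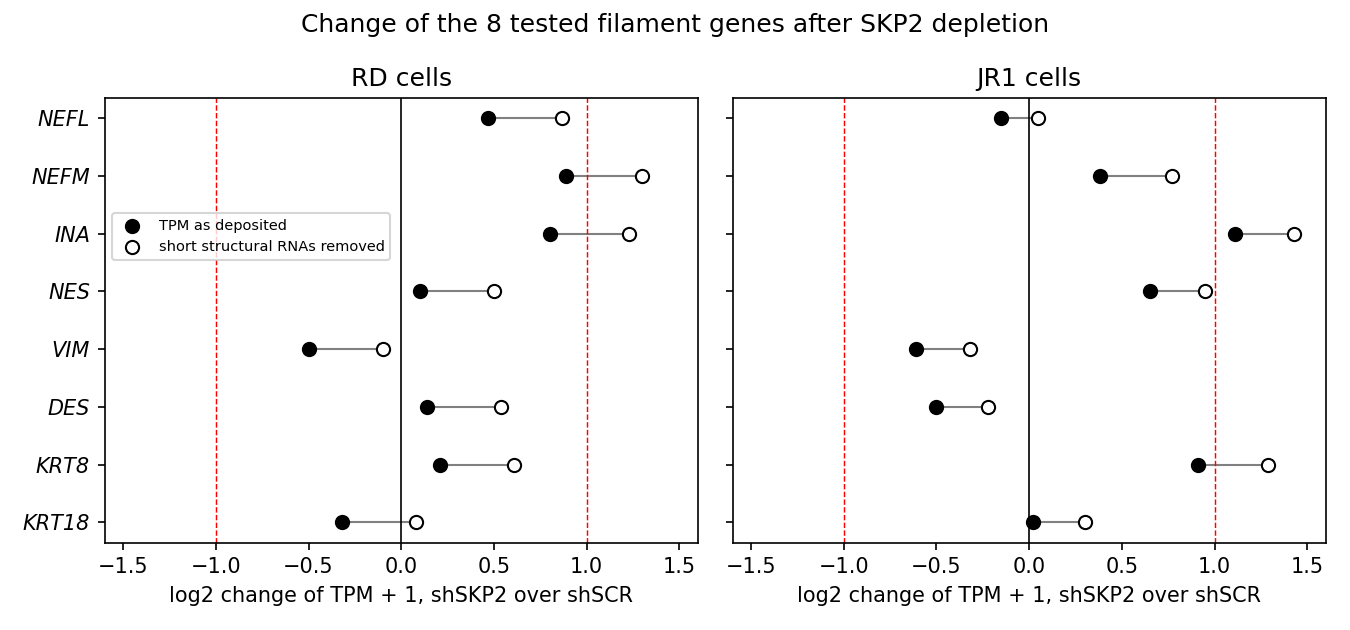
log2 change of TPM + 1 (horizontal, shSKP2 over shSCR) of the 8 tested genes in RD and JR1. Filled points are the TPM as deposited, open points the TPM without short structural RNAs, and dashed lines mark the limits of -1 and 1. INA in JR1 passes the limit on both scales (1.11 and 1.43), and VIM lies under 0 on both scales in both lines.

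INA, the alpha-internexin gene, was higher with shSKP2 in both lines and was the member called in JR1. It lies on chromosome 10 from base 103277138 to base 103290346 (GRCh38). Its level was 7.34 TPM in RD shSCR, 13.6 TPM in RD shSKP2, 10.8 TPM in JR1 shSCR and 24.5 TPM in JR1 shSKP2. Each shSKP2 library was therefore above both shSCR libraries. The share of all tested genes that separate the conditions in this way, here and below, was not counted. On the log2 scale it changed by 0.80 (RD) and 1.11 (JR1), and by 1.23 and 1.43 without the short structural RNAs. Of the 12985 tested genes, 223 had a higher change in RD and 185 in JR1.

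VIM shifted the other way. The vimentin gene lies on chromosome 10 from base 17228241 to base 17237593. Its level was 810.1 TPM in RD shSCR, 572 TPM in RD shSKP2, 897 TPM in JR1 shSCR and 588 TPM in JR1 shSKP2, and each shSKP2 library was under the shSCR library of its line. As deposited both shSKP2 libraries lay under both shSCR libraries, but after rescaling without the short structural RNAs JR1 shSKP2 (1675 TPM) lay above RD shSCR (1624 TPM). On the log2 scale the change was -0.50 (RD) and -0.61 (JR1), short of the limit, and -0.10 and -0.32 without the short structural RNAs. The antisense gene VIM-AS1, which overlaps VIM over 1745 bases, had no more than 0.660 TPM in any library.

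The sequences before the starts of INA and VIM are shown because INA is the called member and VIM the most abundant one, and with shSKP2 they differed from their controls in opposite directions in both lines. The windows hold the 250 bases upstream of the RefSeq start (GRCh38.p14, plus strand), at chr10:103276888-103277137 for INA and chr10:17227991-17228240 for VIM. Capitals mark the E-box CANNTG, the kind of site that MYOD and other helix-loop-helix factors bind, and the GC box GGGCGG, each searched on both strands.

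INA: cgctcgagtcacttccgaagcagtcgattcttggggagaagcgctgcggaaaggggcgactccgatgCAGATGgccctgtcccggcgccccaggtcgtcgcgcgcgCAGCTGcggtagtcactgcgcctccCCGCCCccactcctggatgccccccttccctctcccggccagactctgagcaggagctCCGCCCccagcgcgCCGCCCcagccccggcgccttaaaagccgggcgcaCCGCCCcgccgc

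VIM: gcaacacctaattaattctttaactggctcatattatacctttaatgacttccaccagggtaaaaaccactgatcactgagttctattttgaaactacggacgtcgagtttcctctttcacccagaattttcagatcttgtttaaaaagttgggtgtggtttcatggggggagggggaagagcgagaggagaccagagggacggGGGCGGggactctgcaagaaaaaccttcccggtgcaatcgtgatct

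The INA window holds 2 E-boxes, of which 1 is CAGCTG, a form that also counts under CANNTG, and 4 GC boxes. The VIM window has no E-box and 1 GC box. Of 34943 RefSeq promoter windows of the same length, 61.8% hold CANNTG, 14% hold CAGCTG and 42.5% hold GGGCGG, so each of these motifs is common. The TATA sequence TATAAA, in 10.8% of windows, is in neither of the 2 shown. Windows were read for 5 of the 10 genes, and those of PRPH, NES and KRT8 hold 1, 0 and 2 E-boxes. The KRT8 window (bases 52926470 to 52926719, minus strand) lies within the KRT8 gene model, which runs to base 52949860. It therefore precedes a start inside that model. The windows of NEFL and NEFM, on chromosome 8, were left out by choice, and none was listed for DES, KRT18 or NEFH. The GC content of the INA window is 72.8% and that of the VIM window 46%. A match of letters is a description of the sequence and does not show that a factor binds there.

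NEFL and NEFM, the light and medium neurofilament chains, separated the lines more than any other of the 10 genes. These genes are neighbours on chromosome 8, with 31861 bases between them. NEFL had 68.4 TPM in RD shSCR and 94.9 TPM in RD shSKP2, against 1.91 and 1.63 TPM in JR1. NEFM had 39.5 and 74.1 TPM in RD, against 0.510 and 0.960 TPM in JR1. On the TPM scale the level in RD was 35.8-fold that in JR1 for NEFL and 77.4-fold for NEFM in shSCR, and 58.2-fold and 77.1-fold in shSKP2. Both genes thus ranked in the upper part of the tested genes in RD and among the low ones in JR1: in shSCR 8.12% of tested genes had a higher level than NEFL in RD and 88.2% in JR1.

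With shSKP2 the log2 change of NEFM was 0.89 in RD, and 187 tested genes had a higher one. It was 1.3 without the short structural RNAs, the largest of the 8 genes in RD on that scale. NEFL was at 0.47 in RD, or 0.87 without these RNAs. In JR1, where both levels were near 1 TPM, the changes were 0.38 for NEFM and -0.15 for NEFL, or 0.77 and 0.05 without these RNAs. NEFH, the heavy chain, had 0.070 and 0.060 TPM in RD and 0.230 TPM in both JR1 libraries. PRPH had 0.430 and 0.400 TPM in RD and 0.880 and 0.470 TPM in JR1. The heavy chain and peripherin were thus under 1 TPM also in the line with high NEFL and NEFM.

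NEFL and NEFM were each other's nearest gene by pattern. Among 724 other tested genes that also spanned at least 2 on the log2 scale over the 4 libraries, the distance between their centred log2 levels was 0.49. The next nearest to NEFL were MAGEA9 (0.90), a cancer-testis antigen gene, and POSTN (0.96), which encodes the matrix protein periostin, and the same genes followed for NEFM at 1.25 and 1.26. MAGEA9 had 17.8 and 18.8 TPM in RD and 0.350 and 0 TPM in JR1. POSTN had 18.7 and 15.8 TPM in RD and 0.10 and 0.080 TPM in JR1. This likeness rests on 4 libraries and mostly on the gap between the lines.

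Other neuronal genes did not share that gap as a list. Of 20 neuronal markers, 7 were tested, and their summed level was 615 and 600.4 TPM in RD and 664 and 495 TPM in JR1. Most of it came from UCHL1 (211.6 to 379 TPM) and TUBB3 (228 to 347 TPM). STMN2, GAP43, ELAVL3 and ELAVL4 were at 0.050 TPM or less in all libraries. ISL1, a transcription factor of motor neurons, was the 1 tested marker called higher in RD than in JR1, with 7.89 and 1.6 TPM in RD and 0.290 and 0.190 TPM in JR1. The median log2 change of the tested markers with shSKP2 was -0.59 (RD) and -0.12 (JR1), with 3 of the 7 higher in each line. Without the short structural RNAs it was -0.18 and -0.12, again with 3 of the 7 higher. As deposited ELAVL2, an RNA-binding protein, had the highest change (0.70 in RD, 1.39 in JR1) and L1CAM, an adhesion molecule, the lowest (-1.84 and -1.50). Without these RNAs ELAVL2 was at 1.14 and 1.83, past the limit in both lines, and L1CAM at -1.53 and -1.28. On that scale ISL1 had the lowest change in RD (-1.68).

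Markers of the HEK293T line in which the lentivirus was made were also read, since that line is known to express neurofilament genes. PAX8 was listed at 0 in both RD libraries and LHX1 had no more than 0.080 TPM there. PAX2 had 8.28 and 6.99 TPM in RD and 0.580 and 1.46 TPM in JR1, and LIN28B 13.1 and 16.1 TPM in RD and 9.59 and 13.6 TPM in JR1. PAX2 was called higher in RD than in JR1 in both conditions (2.55 in shSCR, 1.70 in shSKP2), as were 3.4% of tested genes. LIN28B was not called (0.42 and 0.22). Whether such cells contributed to any level in RD was not tested. In bulk RNA fewer cells of a type and less RNA per cell cannot be told apart.

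NES, the nestin gene, lies on chromosome 1 from base 156668763 to base 156677407. Its level was 293 TPM in RD shSCR, 314 TPM in RD shSKP2, 197.9 TPM in JR1 shSCR and 312 TPM in JR1 shSKP2. As deposited JR1 shSCR was the low library and the others lay within 293 to 314 TPM. After rescaling without the short structural RNAs RD shSCR (588.4 TPM) also lay apart from RD shSKP2 (834.1 TPM). JR1 then had 461.3 TPM in shSCR and 889.1 TPM in shSKP2. NES changed on the log2 scale by 0.10 (RD) and 0.65 (JR1), and by 0.50 and 0.95 without the short structural RNAs. The ratio of VIM to NES, which does not depend on the scaling of TPM, went from 2.76 to 1.82 in RD and from 4.53 to 1.88 in JR1. The lines thus differed in this ratio with shSCR and lay close to each other with shSKP2.

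DES, the desmin gene, lies on chromosome 2 from base 219418377 to base 219426734. It had 39.3 TPM in RD shSCR, 43.4 TPM in RD shSKP2, 51.3 TPM in JR1 shSCR and 36.0 TPM in JR1 shSKP2. As deposited the 4 values lie close together, with the highest in one control and the lowest in the depleted culture of the same line. After rescaling without the short structural RNAs JR1 shSCR was still the highest (119.6 TPM), but RD shSCR was the lowest (78.7 TPM). DES changed on the log2 scale by 0.14 (RD) and -0.50 (JR1), or by 0.54 and -0.22 without the short structural RNAs. DES is commonly read as a muscle marker, and it was set beside 17 other genes of the myogenic program and the contractile apparatus, of which 14 were tested. The median log2 change of these was 0.91 (RD) and 1.77 (JR1). Of the 14 genes, 4 in RD and 9 in JR1 were called higher, beside 1.08% and 1.78% of all tested genes, and none was called lower. Without the short structural RNAs 10 were called higher in each line, beside 410 (RD) and 553 (JR1) of the 12985 tested genes. The medians of the 14 genes were then 1.32 and 2.25. In RD 12 of them had a higher change than DES, and in JR1 all 14 did, and both counts were the same on the rescaled TPM. MYL1, a fast myosin light chain, had the highest change of the list in both lines (3.89 and 3.41). MYH3, embryonic myosin heavy chain, had the lowest in RD (-0.13) and MYOD1 the lowest in JR1 (0.38). Genes of this list were chosen with earlier results of these libraries known, so their direction is not independent evidence.

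**Figure D3:**
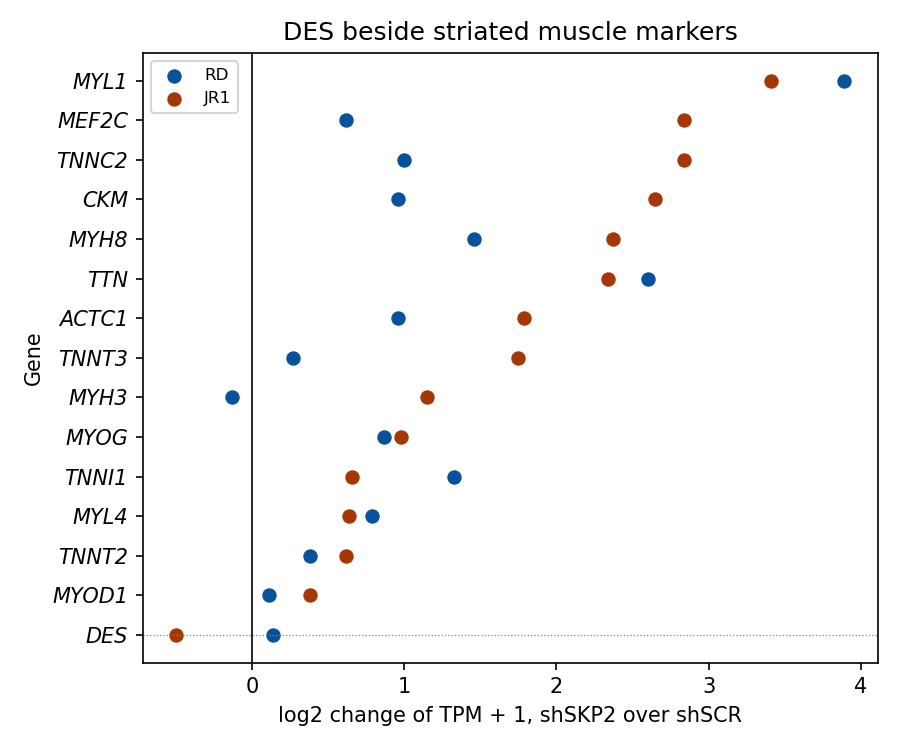
log2 change of TPM + 1 (horizontal, shSKP2 over shSCR) of DES (dotted line) and 14 tested striated muscle markers (vertical, ordered by the change in JR1), in RD and JR1. DES has the lowest value in JR1 (-0.50), and in RD MYOD1 (0.11) and MYH3 (-0.13) lie under its value of 0.14.

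KRT8 and KRT18 lie side by side on chromosome 12, KRT8 from base 52897191 to base 52949860 and KRT18 from base 52948855 to base 52952906. KRT18 had 201.7 TPM in RD shSCR and 161.5 TPM in RD shSKP2, against 80.8 and 81.8 TPM in JR1. KRT8 had 7.67 and 9.06 TPM in RD and 3.04 and 6.58 TPM in JR1. KRT18, the type I chain, thus exceeded its type II partner in every library, by 26.3-fold in RD shSCR and 26.6-fold in JR1 shSCR, and by 17.8-fold and 12.4-fold in shSKP2. This ratio was lower with shSKP2 in both lines.

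KRT8 changed on the log2 scale by 0.21 (RD) and 0.91 (JR1), and by 0.61 and 1.29 without the short structural RNAs. That of KRT18 was -0.32 and 0.02, or 0.08 and 0.30. KRT8 in JR1 also passed the limit relative to the median of all genes (1.12) and with 0.1 TPM added in place of 1 (1.09). The gene models overlap over 1006 bases on opposite strands, and both genes have near-identical pseudogene copies in the genome, so their levels are uncertain. The single pseudogene of each that is listed had at most 0.060 TPM. Of 15 epithelial markers 3 were tested, their summed level was 4.60 to 10.3 TPM, and CDH1 and EPCAM had no more than 0.160 TPM in any library. CLDN4, a tight junction claudin, was called lower in both lines (-1.36 in RD, -1.35 in JR1). The highest changes of these markers were those of SPINT1 in RD (0.61) and MUC1 in JR1 (-0.47). Without the short structural RNAs SPINT1 passed the limit in RD (1.11, from 0.820 and 1.78 TPM as deposited) and was at -0.48 in JR1. CLDN4 was then at -1.24 and -1.45.

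The shares of the 10 genes in their summed TPM show the make-up of the filament transcripts, and these shares do not depend on the scaling either. The sum itself does depend on it. As deposited it was 1468 TPM in RD shSCR and 1284 TPM in RD shSKP2, and 1244 and 1052 TPM in JR1. After rescaling without the short structural RNAs the sum was higher with shSKP2, at 2942 and 3406 TPM in RD and 2901 and 2998 TPM in JR1. The shares below are of the summed TPM. VIM took 55.2% of it in RD shSCR and 44.6% in RD shSKP2, and 72.1% and 55.9% in JR1. NES went from 20% to 24.5% in RD and from 15.9% to 29.7% in JR1. The 5 neural genes together went from 7.88% to 14.3% in RD and from 1.15% to 2.64% in JR1, where INA made up most of it. The keratin pair took 14.3% and 13.3% in RD and 6.74% and 8.40% in JR1, and DES 2.68% and 3.38% in RD and 4.12% and 3.42% in JR1. In both lines the VIM share was therefore lower, and the NES and neural shares higher, in the shSKP2 library.

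**Figure D4:**
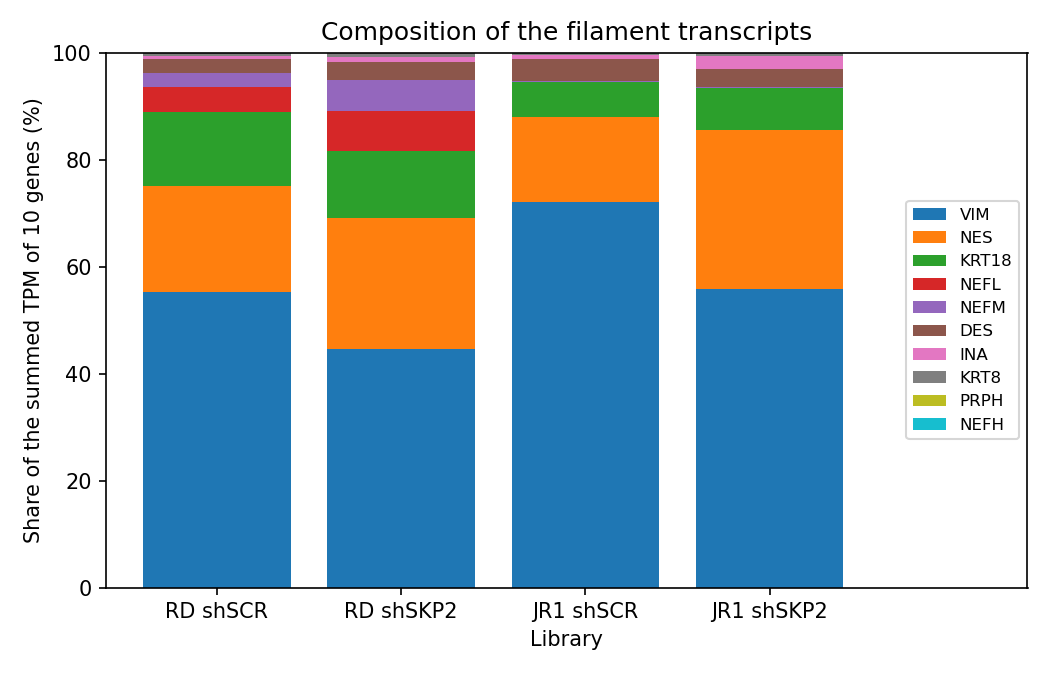
Share of each gene in the summed TPM of the 10 intermediate filament genes (vertical, percent) in the 4 libraries (horizontal). VIM is the largest share in all 4, from 44.6% in RD shSKP2 to 72.1% in JR1 shSCR, and NEFL and NEFM are visible only in RD.

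Between the lines the median log2 ratio of the 8 genes, RD over JR1, was 0.83 in shSCR and 0.34 in shSKP2, beside 0.23 and 0.17 over all tested genes. The log2 ratio of TPM + 1 was 4.57 for NEFL, 4.74 for NEFM, 1.31 for KRT18 and 1.10 for KRT8 in shSCR, so 4 of the 8 genes were called higher in RD, against 6.5% of all tested genes. None was called lower, against 3.45%. In shSKP2 the 2 neurofilament genes were called higher in RD (5.19 and 5.26), against 5.39% of all tested genes, and none lower, against 2.7%. Both genes were called in both conditions, as were 3.4% of tested genes. KRT18 was at 0.97 and KRT8 at 0.41 in shSKP2. KRT8 was under the limit in shSCR too when the ratios were centred on the median of all genes (0.87). INA was lower in RD in both conditions (-0.50 and -0.81), while VIM (-0.15 and -0.04) and DES (-0.38 and 0.26) differed little. These ratios use the same libraries as the changes with shSKP2 and are not independent of them.

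Other filament genes were mostly at low levels. Of the 52 other keratins 28 were listed at 0 in all 4 libraries and 3 were tested. KRT75, a type II keratin of the hair follicle, had 44.0 and 25.0 TPM in JR1 and 0.060 and 0.470 TPM in RD, a gap in the opposite direction to that of NEFL and NEFM. KRT10, a type I keratin, had 2.40 to 3.31 TPM. GFAP, the astrocyte filament, had no more than 0.280 TPM.

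SYNM, which encodes synemin, a partner of desmin and vimentin, was called lower in both lines. It had 10.3 and 3.89 TPM in RD and 10.8 and 3.97 TPM in JR1 (shSCR and shSKP2). On the log2 scale the change was -1.20 (RD) and -1.24 (JR1), and without the short structural RNAs -0.93 and -1.08, under the limit in RD. IFFO2, a little-studied member of the filament superfamily, had 9.70 and 5.60 TPM in RD and 8.22 and 3.01 TPM in JR1, and was called lower in JR1 (-1.20). IFFO1, its relative, had the highest level of this group (19.7 to 28.9 TPM). The 3 lamins, which line the nucleus, had medians of -0.49 (RD) and -0.06 (JR1), or -0.09 and 0.22 without the short structural RNAs, and LMNA had 167.6 to 269 TPM.

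Genes that bind, fold, modify or degrade filaments were read from lists as well. Over these and the other filament genes, 92 in all with 39 tested, 1 was called higher and 2 lower in RD, beside 1.08% and 7.37% of all tested genes, and 1 higher and 5 lower in JR1, beside 1.78% and 9.05%. By sign alone 29 of the 39 were lower in RD and 33 in JR1, beside 9738 and 8943 of the 12985 tested genes. Once the short structural RNAs were removed 19 were lower in each line, beside 5345 (RD) and 6112 (JR1) over all tested genes. Of the 10 tested linkers, which tie filaments to junctions, actin and Z-discs, 5 were higher in RD and 4 in JR1, with none called. FLNC, a muscle filamin, had the highest level of them (122.9 to 153 TPM). Of the 4 chaperones, CRYAB, a small heat shock protein that binds desmin, went from 3.55 to 0.450 TPM in JR1 (-1.65, or -2.02 without the short structural RNAs) and from 0.450 to 0.080 TPM in RD (-0.43). HSPA8, the constitutive HSP70, was the most abundant (450.3 to 594 TPM). Of the 5 turnover genes none was called, and CAPN2, a calpain protease, had 52.4 to 81.1 TPM.

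Of the 9 kinases and kinase activators, 8 were lower in each line, beside 9738 (RD) and 8943 (JR1) of the 12985 tested genes. Without the short structural RNAs 5 were lower in RD and 6 in JR1, beside 5345 and 6112 over all tested genes. CDK5R1 was called higher in both lines. It encodes p35, the activator of CDK5, a kinase known to act on neurofilaments and nestin, and it had 9.97 and 23.1 TPM in RD and 14.5 and 42.3 TPM in JR1 (shSCR and shSKP2). On the log2 scale the change was 1.13 (RD) and 1.48 (JR1), or 1.57 and 1.8 without the short structural RNAs. CDK5 itself was at -0.61 and -0.43, or -0.23 and -0.16. The mitotic kinases that act on vimentin had lower levels. CDK1 had 26.9 and 11.3 TPM in RD (-1.18, or -0.82 without the short structural RNAs) and 13.0 and 4.10 TPM in JR1 (-1.46, or -1.31). PLK1 was called lower in JR1 (-1.19, or -0.95 without these RNAs, against -0.66 in RD), and AURKB had -0.67 and -0.91, or -0.27 and -0.65.

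**Figure D5:**
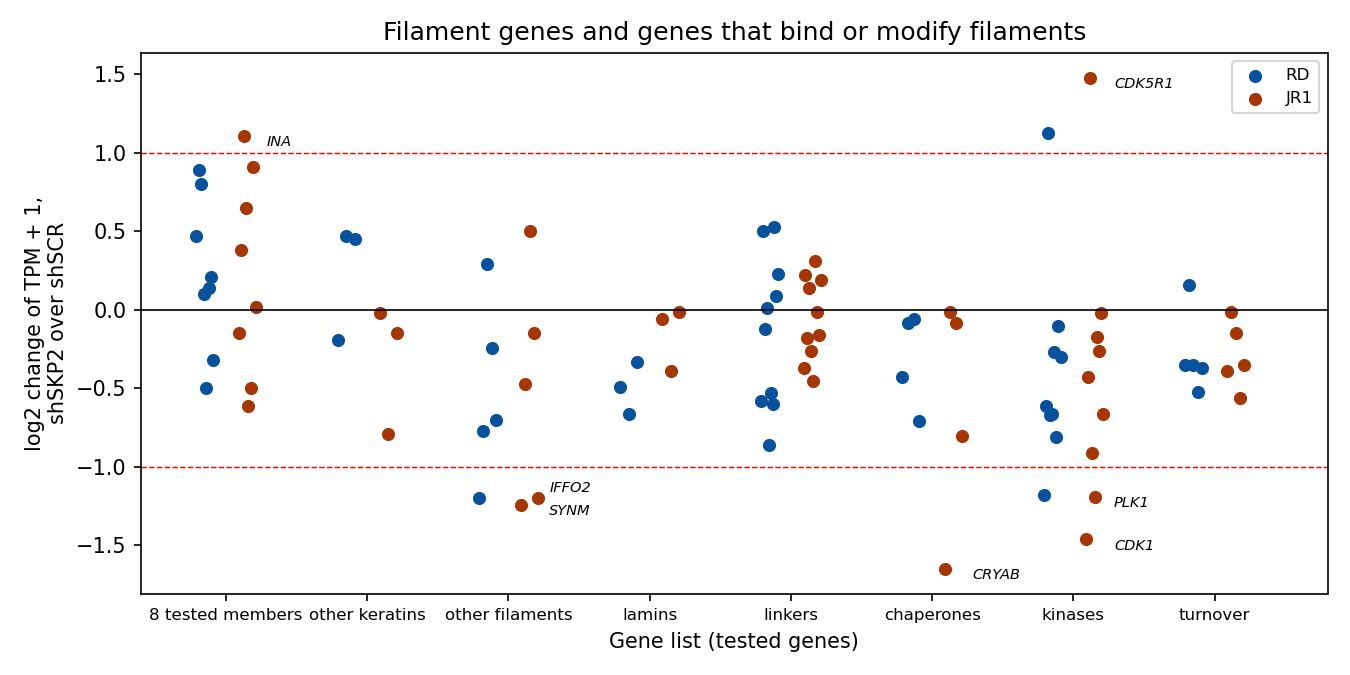
log2 change of TPM + 1 (vertical, shSKP2 over shSCR) of the tested filament genes and of genes that bind or modify filaments, by list (horizontal), in RD and JR1. Dashed lines mark -1 and 1, and genes called in at least 1 line are named beside their JR1 point, with CDK5R1 highest (1.48) and CRYAB lowest (-1.65).

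Fibroblast markers, which share VIM, were read beside it. Of 10 markers 7 were tested, and their summed level was 1430 and 1489 TPM in RD and 1369 and 596 TPM in JR1. COL1A1, a collagen chain, had the lowest change (-1.98 in RD and -2.54 in JR1), while COL3A1 in RD (0.37) and POSTN in JR1 (-0.03) had the highest. THY1, a surface glycoprotein, was also called lower in both lines (-1.50 in RD and -2.32 in JR1), with 34.0 and 11.4 TPM in RD and 66.5 and 12.5 TPM in JR1. DCN and PDGFRA had no more than 0.060 TPM in any library, while COL3A1 reached 1383 TPM. The part of other cells in the levels of VIM was not tested.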

How the data were processed

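Poly-A RNA of RD and JR1 cells was read as directional libraries with pairs of 150 bases. Per the labels and the study's methods, STAR 2.7.9a was the aligner the authors ran, on GRCh38, RSEM 1.3.2 gave the expression values, and the deposited TPM values (2 decimals, 1 file per library) sum to about 1e+06. Strand settings of the counting are not given in the sources used here. Depth is unknown, so no counting error can be given, and 1 library per line and condition allows no test within a line.

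TPM were used as deposited. The change was log2 of the ratio of TPM + 1, genes were tested from a mean of 1 TPM, and 1 on this scale was the limit for a call. Alternatives were 0.1 TPM added, centring on the median, removal of 2571 short structural RNA genes by symbol with rescaling, a minimum mean of 5 TPM, every gene above 0 TPM, a limit of 1.5-fold, pseudogene TPM added to KRT8 and KRT18, and, chosen after seeing the data, that removal widened to transfer RNA genes, RPPH1 and RMRP.

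All 10 members and SKP2 are named. Of the related lists, genes called in a line and the most abundant gene are named, and of the marker lists the extremes. For members that span at least 2 on the log2 scale, the 3 nearest genes by Euclidean distance of centred levels are given. Other genes named for their level or as partners of a named gene were chosen after their values were seen. Added after seeing the data, limma 3.58.1 (trend, moderated, Benjamini-Hochberg adjustment) tested the mean change over both lines with the line as a block. The members and lists were chosen with earlier results of these data known. The methods were checked on made-up data with known changes. In the check of limma the changes were the same in both lines and no shift from short structural RNAs was included, so it does not cover those conditions. Python 3.11.15, numpy 2.4.6, pandas 2.3.3 and matplotlib 3.10.9 were used, and promoters came from RefSeq (GRCh38.p14).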

Additional observations from a re-analysis of the deposited data

Results flagged for a closer look

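For 3 of the 8 tested genes the changes with shSKP2 had opposite signs in the 2 lines as deposited. The difference was not tested, since there is 1 library per line and condition. The share of all tested genes with opposite signs was not counted. Of the 3 genes, only DES kept opposite signs without the short structural RNAs. DES was at 0.14 (RD) and -0.50 (JR1) on the log2 scale, 0.64 apart (RD minus JR1), and the directions also differed without the short structural RNAs (0.54 and -0.22). NEFL was at 0.47 and -0.15, which is 0.61 apart, but 0.87 and 0.05 without these RNAs, and its JR1 levels were low (1.91 and 1.63 TPM). KRT18 had -0.32 and 0.02, a difference of -0.34, but 0.08 and 0.30 without these RNAs. Its JR1 levels were nearly the same (80.8 and 81.8 TPM).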

How the results depend on the processing

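Each group holds 1 library, so no replicate could be left out. In the paired analysis over the lines (replicate block, 1 residual degree of freedom, chosen after seeing the data) 3 members passed in limma as deposited. Without the short structural RNAs 4 passed, where VIM no longer passed and NES and KRT8 did. Calls over all genes were 499 higher and 3456 lower of 12985 as deposited, and 1618 and 1540 of 14733 without these RNAs. All 8 member changes within a line were recomputed under 7 alternatives, as were the ratios between the lines. SKP2 was lower in both lines under all of them, from -3.17 to -3.63 in RD and from -3.46 to -4.05 in JR1. No called value of a member changed sign. Members called higher in RD numbered 0 with the TPM as deposited and 2 after centring, after removal of the short structural RNAs, with that removal widened to transfer RNA genes, RPPH1 and RMRP, and with a limit of 1.5-fold. In JR1 they numbered 1, and 2 under these scalings and with 0.1 TPM added, or 3 with a limit of 1.5-fold, which also called 1 lower in JR1 and 1 lower in RD than JR1 in shSKP2. The median ratio of the lines in shSCR, 0.83, lies above that limit. Related genes called lower in RD numbered 2, against 5 with 0.1 TPM added, 0 after centring, 0 without the short structural RNAs, 1 with the wider removal, and 12 at 1.5-fold. In JR1 they numbered 5, against 3 after centring and 9 at 1.5-fold. Related genes called higher in RD numbered 1, against 2 with 0.1 TPM added or without the short structural RNAs and 3 with the wider removal, which gave 2 in JR1 against 1. Rescaling without the short structural RNAs changed the set as well, since 14733 genes then reached the minimum, against 12985 as deposited and after centring. Counts among the 12985 genes are given above. Over each set, calls in RD were 140 higher and 957 lower as deposited, 272 and 458 after centring and 553 and 502 without the short structural RNAs. In JR1 they were 231 and 1175, 388 and 710, and 693 and 991. With 0.1 TPM added they were 279 and 1410 in RD and 378 and 1761 in JR1, and at 1.5-fold 416 and 3011 and 689 and 3041. Between the lines calls were 844 higher and 448 lower in RD in shSCR and 700 and 351 in shSKP2. Over the 14733 genes without the short structural RNAs they were 748 and 843 in shSCR and 933 and 634 in shSKP2. The pseudogenes left the ratio of KRT18 to KRT8 within 17.7 to 26.6, and at 12.4 in JR1 shSKP2.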
